A study of Mus musculus with 2 samples.

Results

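The genes of the integrated stress response, including the kinase HRI that starts it in red cell precursors, were 10 of the 43346 mouse genes measured: the 4 kinases of the translation factor eIF2 alpha (Eif2ak1, Eif2ak2, Eif2ak3 and Eif2ak4), the transcription factors Atf4 and Ddit3, the phosphatase subunits Ppp1r15a and Ppp1r15b, and Xbp1 and Hspa5 of the unfolded protein response. They were chosen by symbol, matched to the gene identifiers of the tables, with all 39 of their transcripts out of 103639. The cells were G1E-ER4, an immortalised mouse erythroid line whose own Gata1 gene is disrupted and which carries GATA1 fused to the hormone-binding part of the estrogen receptor. All cells had received 17beta-estradiol at 10 nM for 3 h, and polyadenylated RNA was sequenced in 2 libraries, the biological replicates 1 and 2 of 1 group. Since the labels trace both replicates to 1 record of cells, differences between them may be technical only. The values are levels in treated cells and not responses to estradiol, because no untreated library was used here.

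In the integrated stress response, a kinase phosphorylates eIF2 alpha, which lowers the supply of initiator tRNA to the ribosome and slows most translation, while a few mRNAs with short upstream reading frames, Atf4 first among them, are translated more. HRI, encoded by Eif2ak1, is held inactive by heme and is known in red cell precursors for matching globin synthesis to the heme supply. PKR (Eif2ak2) responds to double-stranded RNA, PERK (Eif2ak3) to unfolded protein in the endoplasmic reticulum and GCN2 (Eif2ak4) to uncharged tRNA. Phosphorylation and translation were not measured here, and in bulk RNA fewer cells of a type and less RNA per cell cannot be told apart.

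Replicate 1 held 31126956 expected counts and replicate 2 held 57853617. Expected counts are estimated fragments per gene, and TPM is abundance per transcript length with the same total in each library. All 10 erythroid markers fixed for the line reached 1 TPM in both libraries, with sums of 3856 and 3041 TPM in replicates 1 and 2. None of the 10 markers of other blood and tissue lineages did, with sums of 2.70 and 1.37 TPM, and Cd3e, Itgam, Lyz2 and Pecam1 had no count in either library. The libraries stood apart in the factor that defines the system, since Gata1 was at 190 TPM in replicate 1 against 799 TPM in replicate 2. The part of this difference in the results below was not tested, and every result is given for each library.

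All 10 genes reached 1 TPM in both libraries, and 8 reached 10 TPM in both. By gene TPM the chaperone gene Hspa5 led in both libraries and Eif2ak3 was last in both. By principal coding transcripts, described below, Hspa5 was behind Atf4 and Ppp1r15a in replicate 2, and Eif2ak2 was last in replicate 1. The order between them was loose. By mean TPM it ran Hspa5, Ppp1r15a, Atf4, Ppp1r15b, Xbp1, Eif2ak1, Ddit3, Eif2ak2, Eif2ak4 and Eif2ak3. The gap between neighbours exceeded their combined SD only between Hspa5 and Ppp1r15a, between Eif2ak2 and Eif2ak4, and between Eif2ak4 and Eif2ak3. Of the 9 neighbouring pairs, 4 swapped places between the libraries.

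**Figure D1:**
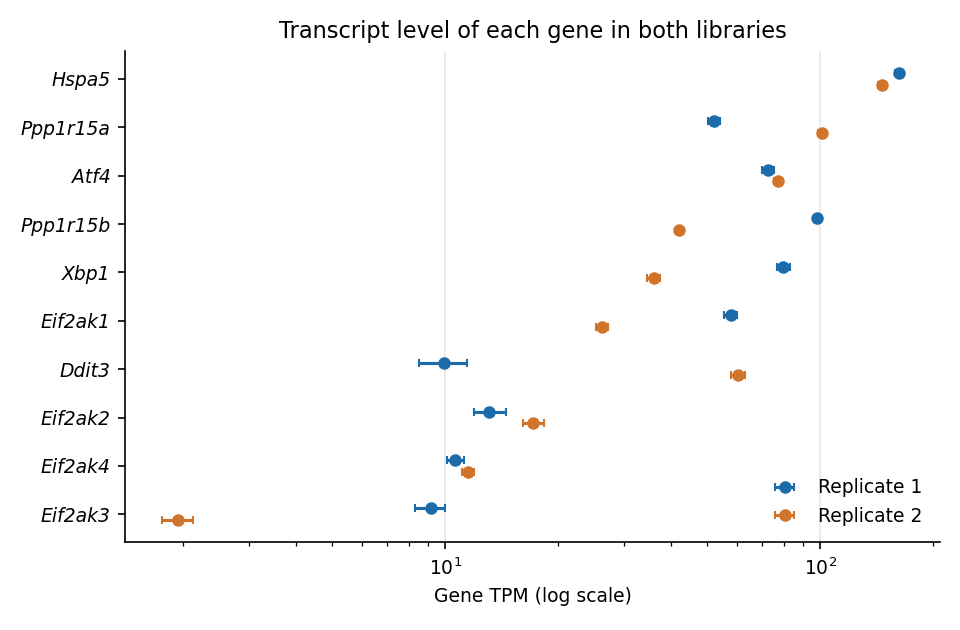
Gene TPM (log axis) of the 10 genes in replicate 1 and replicate 2, in the order of their mean, with bars for the 95% Poisson interval of the counts. Hspa5 was highest in both libraries at 162 and 146 TPM, and Ddit3 was furthest apart at 9.91 and 60.3 TPM, with intervals far narrower than the gap.

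The mRNAs of this pathway that are known to be controlled by eIF2 alpha phosphorylation carry short reading frames upstream of the main one. Of each gene 1 principal coding transcript (marked as principal by the annotation GENCODE M21) was searched. Where more than 1 is marked, Ppp1r15a-201 and Hspa5-202 were used. An ATG upstream of the main start was found 3 times each in Atf4, Ppp1r15a, Ppp1r15b and Eif2ak3, 2 times in Ddit3 and 1 time each in Eif2ak2 and Xbp1. Eif2ak1, Eif2ak4 and Hspa5 had none. Upstream ATGs are common: 49.8% of the 25100 principal coding transcripts with an ATG start held at least 1 and 19.4% at least 3, so their presence alone is not particular to these genes. The start sites below, each 21 bases long with the upstream ATG in capitals and numbered from the 5′ end, are shown because these reading frames are what lets the mRNAs answer eIF2 alpha phosphorylation. They give the short and the long upstream frame of Atf4 and a frame of each of the 3 other mRNAs known for this control.
Atf4, upstream ATG 2: gcggccaccATGgcgtattag
Atf4, upstream ATG 3: gcctaagccATGgcgctcttc
Ddit3, upstream ATG 1: gattatatcATGttgaagatg
Ppp1r15a, upstream ATG 3: gagggcgacATGaacccgctg
Ppp1r15b, upstream ATG 3: ctagccgggATGgacctaacc

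The frame at ATG 2 of Atf4 is 3 codons long and its stop lies 184 bases before the main start. The frame at ATG 3 is 59 codons long and runs 83 bases past the main start in another frame. The frame of Ddit3 holds 34 codons and ends 26 bases before the main start. That of Ppp1r15a holds 26 codons and ends 23 bases before it, and that of Ppp1r15b holds 51 codons and ends 74 bases before it. The values below are RNA levels of these mRNAs and say nothing of how often these frames are read.

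Eif2ak1 (HRI; chromosome 5, 143817788 to 143904251 of GRCm38, plus strand) had the highest gene TPM of the 4 kinases in both libraries. Replicate 1 had 57.7 TPM (2752 counts) and replicate 2 had 26.2 TPM (2799 counts), a mean of 41.9 TPM ± 22.2 (SD, n = 2). The libraries thus held nearly equal numbers of Eif2ak1 fragments although replicate 2 was far deeper. Eif2ak2 (chromosome 17, 78852564 to 78882573, minus strand) stood at 13.1 and 17.2 TPM, with 402 and 960 counts. Eif2ak4 (chromosome 2, 118388618 to 118475234, plus strand) stood at 10.6 and 11.5 TPM, with 1329 and 3005 counts, and was the steadiest kinase at 11.1 TPM ± 0.580 (SD, n = 2). Eif2ak3 (chromosome 6, 70844515 to 70905245, plus strand) was lowest at 9.15 and 1.94 TPM, although its counts were 438 and 440. Eif2ak1 made up 63.6% of the summed TPM of the 4 kinases in replicate 1 and 46.2% in replicate 2, or 54.9% ± 12.4 (SD, n = 2).

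Most of the Eif2ak1 signal was not assigned to the mRNA that encodes the kinase. The principal coding transcript Eif2ak1-201, with 15 exons and 619 codons, had 8.76 TPM in replicate 1 and 5.24 TPM in replicate 2, which is 15.2% and 20% of the gene. Eif2ak1-202, annotated as a retained intron transcript, had 48.9 and 21 TPM, or 84.8% and 80.0%. It follows the mRNA over 690 exon bases up to exon 6 and then runs 964 bases into the intron. Both libraries therefore ranked the 2 transcripts alike. By counts the retained intron transcript took 66.9% and 59.0% of the fragments, a smaller share than by TPM because it is 1654 bases long against 4330 for the mRNA. Where its fragments lie along the transcript was not analysed here. The 3′ end of Eif2ak1, past the end of Eif2ak1-202, overlaps Aimp2 on the other strand, at 26.8 and 206 TPM. The part of Aimp2 in the Eif2ak1 values was not tested.

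Eif2ak2 had the same make-up and Eif2ak3 differed between the libraries. The retained intron transcript Eif2ak2-204, 704 bases long, had 76.9% of the gene's TPM in replicate 1 and 81.0% in replicate 2, against 18.6% and 14.4% for the coding Eif2ak2-201. By counts the coding transcript led, with 63.0% and 56.3% of fragments. For Eif2ak3, the coding Eif2ak3-201 had 2.87 and 1.91 TPM. The short Eif2ak3-204, of 927 bases, had 6.19 TPM from 121.4 counts in replicate 1 and no count in replicate 2. The 4.72-fold gap in gene TPM of Eif2ak3 thus came with nearly equal unscaled counts, although replicate 2 was far deeper. By the principal transcript alone the gap was 1.5-fold. Eif2ak4 was read mainly from its 39-exon coding transcript Eif2ak4-201, at 10.5 and 9.29 TPM, while Eif2ak4-202, a second coding form, had 0 in replicate 1 and 10.3% of the TPM in replicate 2.

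The junctions at which the retained intron transcripts of Eif2ak1, Eif2ak2 and Xbp1 leave the mRNA are shown because the values of these genes turn on them, with 30 exon bases in capitals and 30 intron bases in lower case, read along the gene.
Eif2ak1-202, exon 6, last exon base chromosome 5 143879515: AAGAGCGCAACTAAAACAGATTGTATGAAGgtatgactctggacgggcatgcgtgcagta
Eif2ak2-204, exon 4, last exon base chromosome 17 78873943: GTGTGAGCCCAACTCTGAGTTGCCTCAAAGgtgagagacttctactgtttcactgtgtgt
Xbp1-202, exon 3, last exon base chromosome 11 5523467: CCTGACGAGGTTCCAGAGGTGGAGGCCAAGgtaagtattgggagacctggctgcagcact

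**Figure D2:**
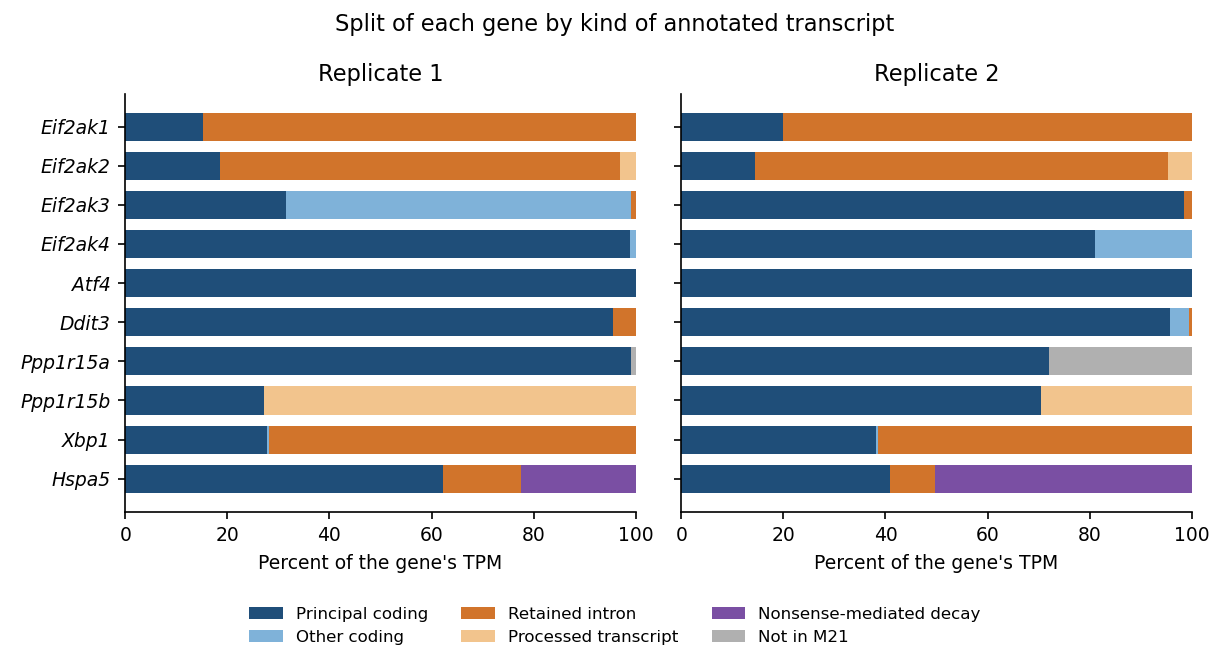
Percent of each gene's TPM by kind of annotated transcript, with 1 bar per gene and library. Retained intron transcripts fill 84.8% and 80.0% of Eif2ak1, while Atf4 is read from its coding transcript alone and Ppp1r15b and Eif2ak3 differ between the libraries.

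With only the principal coding transcripts counted, a choice made after the transcript tables had been seen, Eif2ak4 and not Eif2ak1 led the kinases. Eif2ak4 then made up 42.8% of the 4 in replicate 1 and 49.1% in replicate 2, and Eif2ak1 35.6% and 27.7%. By gene TPM the log2 ratio of Eif2ak1 to Eif2ak4 was 2.44 in replicate 1 and 1.19 in replicate 2, and by principal transcripts it was -0.26 and -0.83. By expected counts, which are not scaled to length, Eif2ak1 had 55.9% of the kinase fragments in replicate 1 and 38.9% in replicate 2, where Eif2ak4 had 41.7%. Eif2ak1 exceeded Eif2ak2 and Eif2ak3 under both TPM measures in both libraries. Against Eif2ak2 its log2 ratio was 2.13 and 0.61 by gene TPM and 1.84 and 1.08 by principal transcripts.

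**Figure D3:**
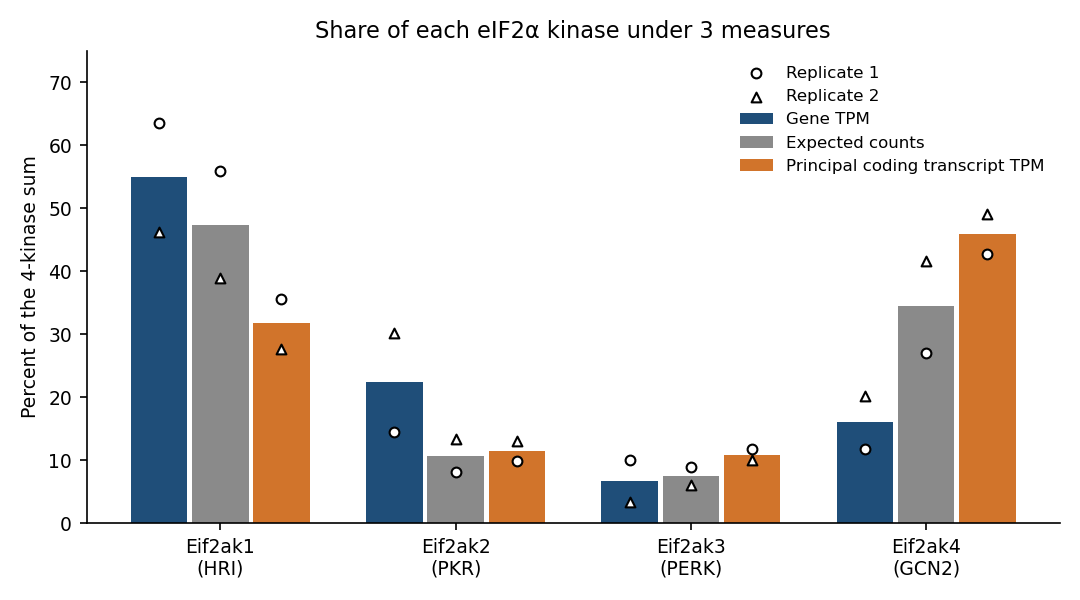
Share of each eIF2 alpha kinase in the sum of the 4, in percent, by gene TPM, by expected counts and by TPM of principal coding transcripts, with bars for the mean and points for the 2 replicates. Eif2ak1 leads by gene TPM at a mean of 54.9%, and Eif2ak4 leads by principal transcripts at 45.9%.

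Atf4 (chromosome 15, 80255184 to 80257541, plus strand), the transcription factor at the centre of the response, was among the steadiest of the 10. Replicate 1 had 72.4 TPM (2851 counts) and replicate 2 had 77.0 TPM (6346 counts), a mean of 74.7 TPM ± 3.27 (SD, n = 2). All of it was assigned to the single transcript Atf4-201, so gene and transcript values are the same. Its mean lay above 79.1% of the 9269 genes whose mean reached 1 TPM.

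Ddit3 (CHOP; chromosome 10, 127290774 to 127296288, plus strand), a transcription factor induced downstream of Atf4 and linked to cell death under lasting stress, was the gene on which the libraries differed most. Replicate 1 had 9.91 TPM (186 counts) and replicate 2 had 60.3 TPM (2301 counts), so the libraries did not come near each other. On library sizes scaled by TMM, a scaling that assumes most genes alike, replicate 2 was 7.45-fold higher, with a log2 ratio of 2.90 (95% interval for counting error 2.69 to 3.13). The coding transcript Ddit3-201 carried 95.6% and 95.7% of the TPM, so the gap was as large by transcript, at 9.47 and 57.8 TPM. Atf4 exceeded Ddit3 7.31-fold by gene TPM in replicate 1 and 1.28-fold in replicate 2. The gap of Ddit3 was larger than that of 96.9% of all genes tested. The 3′ end of Ddit3 overlaps Mars on the other strand, which stood at 56.9 and 109 TPM, and whether counting used strand is not stated in the sources used here. The part of Mars in the Ddit3 values was not tested.

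Of the 2 subunits that bring protein phosphatase 1 to eIF2 alpha and so end the response, the inducible one was higher in replicate 2 and the constitutive one in replicate 1. Ppp1r15a (GADD34; chromosome 7, 45522916 to 45526268, minus strand) had 52.2 TPM in replicate 1 and 101 TPM in replicate 2, from 2831 and 8688 counts. Ppp1r15b (CReP; chromosome 1, 133131143 to 133139783, plus strand) stood at 98.3 and 42.1 TPM, with 9932 and 10755 counts. Their order in gene TPM was therefore opposite in the libraries, with a log2 ratio of Ppp1r15a to Ppp1r15b of -0.91 in replicate 1 and 1.26 in replicate 2.

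The transcripts of this pair gave one order in both libraries. The coding Ppp1r15b-201 had 26.8 and 29.6 TPM, close in both, while Ppp1r15b-202, annotated as a processed transcript with no reading frame, had 71.5 TPM in replicate 1 and 12.4 TPM in replicate 2. All 3688 bases of Ppp1r15b-202 lie within exons of the coding transcript, so the split between them rests on the authors' estimate. The coding transcripts of Ppp1r15a had 51.7 and 72.6 TPM. A further 27.6% of its TPM in replicate 2 sat on ENSMUST00000139268, a transcript of 389 bases that M21 no longer holds, which took 0.59% in replicate 1. In counts this short transcript held 1.9 of the gene's 2831 in replicate 1 and 345.4 of 8688 in replicate 2. By principal transcripts, Ppp1r15a exceeded Ppp1r15b with log2 ratios of 0.95 and 1.29. The start of Ppp1r15b overlaps Gm26616 on the other strand, at 34.8 and 18.4 TPM, and its part was not tested.

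Xbp1 (chromosome 11, 5520659 to 5525893, plus strand), the factor that the sensor IRE1 activates by splicing, had 79.7 TPM in replicate 1 and 36.0 TPM in replicate 2, from 2309 and 2395 counts. The retained intron transcript Xbp1-202 had 71.9% and 61.4% of the TPM and the coding Xbp1-201 had 27.7% and 38.1%, or 22.1 and 13.7 TPM. By counts Xbp1-202 took 52.4% and 40.3% of the gene's fragments and Xbp1-201 took 47.3% and 59.3%. IRE1 removes 26 bases from the mRNA, at chr11:5524279-5524304 on the plus strand, which lengthens the reading frame from 267 to 371 codons. The stretch is shown with the removed bases in capitals, because it decides what these tables can say of the pathway.
Xbp1, IRE1 splice site: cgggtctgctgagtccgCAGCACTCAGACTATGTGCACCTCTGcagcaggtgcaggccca

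None of the 4 Xbp1 transcripts in the tables joins the bases on either side of this stretch. Xbp1-201, Xbp1-203 and Xbp1-204 hold it and Xbp1-202 ends before it. The level of the spliced form, the direct readout of IRE1, therefore has no value here.

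Hspa5 (BiP; chromosome 2, 34771970 to 34777547, plus strand), the main chaperone of the endoplasmic reticulum and a target of ATF6, had 162 TPM in replicate 1 (6785 counts) and 146 TPM in replicate 2 (9293 counts). Its mean of 154 TPM ± 11.3 (SD, n = 2) lay above 88.8% of those 9269 genes. The near-equal gene values held different transcripts. The coding transcripts had 101 TPM in replicate 1 and 59.9 TPM in replicate 2, or 62.2% and 40.9%, while Hspa5-204, a 477-base transcript annotated as a target of nonsense-mediated decay, had 36.7 and 73.5 TPM. By counts Hspa5-204 took 4.57% of the gene's fragments in replicate 1 and 13.5% in replicate 2. The retained intron transcript Hspa5-206 had 15% and 8.8% of the TPM.

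The Hspa5 promoter (RefSeq, GRCm38.p6) holds the endoplasmic reticulum stress element, the motif that ATF6 and XBP1 are known to bind, which was searched as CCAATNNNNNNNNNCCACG on both strands. Of 32851 promoters, each searched over the 250 bases before the start, 0.113% hold it, and of the 9 genes with an entry only Hspa5 did. The site lies 65 bases before the RefSeq start, at chr2:34772025-34772043, and is shown with the motif in capitals. The GENCODE span of Hspa5 given above begins upstream of the site, at 34771970. Ppp1r15a holds a cyclic AMP response element, TGACGTCA, the palindrome that ATF and CREB factors bind, 12 bases before its start at chr7:45526273-45526280, as do 1.55% of promoters. Also searched was the composite motif of ATF4 and C/EBP factors, TGATGNAA, found in 0 of the 9 genes and 3.45% of promoters. The TATA box was likewise found in 0 of them, against 12.4% of promoters. The GATA motif AGATAA was found in Ppp1r15a, as in 9.99% of promoters, and the CCAAT box in 5 genes, against 33.8%. A match describes the letters and is not evidence of binding.
Hspa5, stress element: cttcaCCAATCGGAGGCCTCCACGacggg
Ppp1r15a, cyclic AMP response element: tccggTGACGTCAgcac

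Across the annotation, such splits between coding and other transcripts were common. Over the 8435 protein-coding genes that had a principal transcript and whose mean reached 1 TPM, a gene's principal transcripts together carried a median of 80.9% of its TPM in replicate 1 and 80.2% in replicate 2. They carried under 50% in 40.3% and 39.1% of genes. For the 10 genes described here the medians were 46.8% and 71.2%, and 5 fell under 50% in replicate 1 and 4 in replicate 2. By TPM, Atf4, Ddit3, Ppp1r15a and Eif2ak4 were led by a principal coding transcript in both libraries, and Eif2ak1, Eif2ak2 and Xbp1 in neither. By counts such transcripts also led Eif2ak2, Eif2ak3 and Hspa5 in both libraries, and Xbp1 in replicate 2.

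The difference between the libraries was then tested against counting noise, gene by gene, by the exact conditional binomial test (two-sided) with TMM-scaled library sizes and Benjamini-Hochberg adjustment over 10635 genes. The test compares 2 libraries, not conditions. All 10 genes differed beyond counting noise, as did 80.7% of all genes tested, and 5 were higher in each library. Only Ddit3 was also at least 2-fold apart, against 26.5% of all genes tested. The median absolute log2 ratio was 0.64 for the 10 genes and 0.59 for all genes. Their adjusted p ranged from 3.75e-10 for Eif2ak2 to 4.66e-266 for Ddit3 by this exact test.

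Higher in replicate 2 were Ddit3, Ppp1r15a at 1.86-fold, Eif2ak2 at 1.45-fold, Eif2ak4 at 1.37-fold and Atf4 at 1.35-fold. Higher in replicate 1 were Eif2ak3 at 1.64-fold, Eif2ak1 at 1.62-fold, Xbp1 at 1.59-fold, Ppp1r15b at 1.52-fold and Hspa5 at 1.20-fold. Of all genes that differed beyond counting noise, 53.6% were higher in replicate 2, close to the 5 of 10 here. By gene TPM, on the scale of log2(TPM + 1) and with no test, 5 genes were at least 2-fold apart, against 24.3% of all genes tested, because Eif2ak1, Eif2ak3, Ppp1r15b and Xbp1 joined Ddit3. By TPM of principal transcripts only Ddit3 was, at 6.10-fold. On that measure Eif2ak4 and Ppp1r15b changed direction between the libraries. Their log2 ratios were 0.11 and -1.23 by gene TPM and -0.18 and 0.14 by principal transcript TPM.

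**Figure D4:**
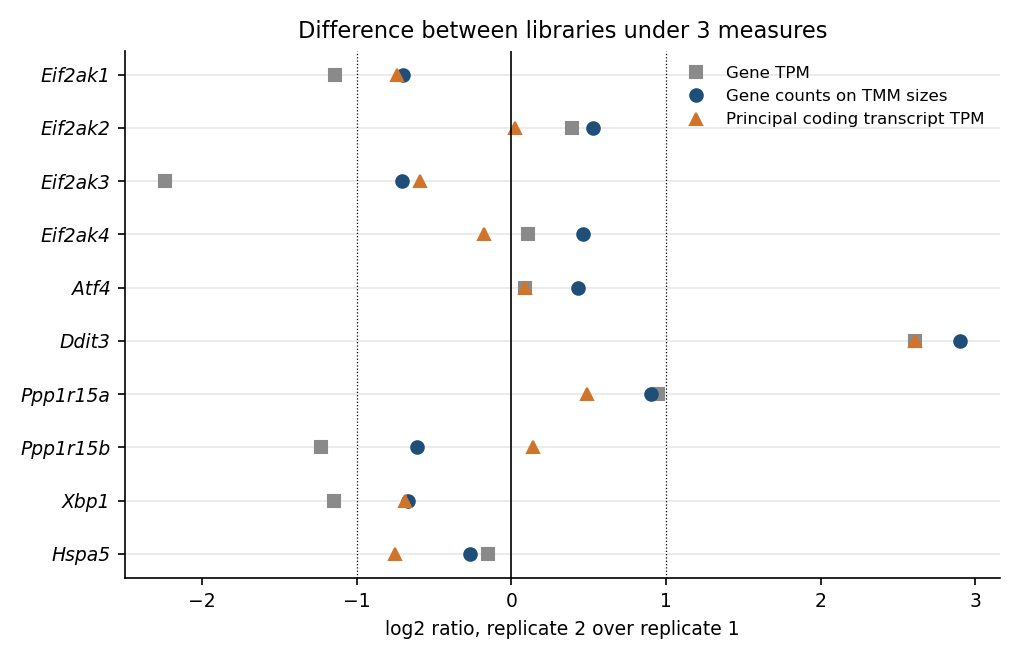
The log2 ratio of replicate 2 to replicate 1 for each gene, by gene TPM, by counts on TMM-scaled sizes and by TPM of principal coding transcripts, with dotted lines at 2-fold. Ddit3 lies beyond 2-fold under every measure, and Eif2ak4 and Ppp1r15b change side.

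The rest of the pathway was described by 82 further genes in 7 lists. Of these, 65 reached 1 TPM in both libraries and 69 had enough counts to test. Their levels are given as gene TPM, and their order by principal coding transcripts was not examined. Beyond counting noise, 31 were higher in replicate 1 and 33 in replicate 2, and 5 and 11 of them were at least 2-fold apart. Together 92.8% of the tested genes differed beyond counting noise, against 80.7% of all genes, and 23.2% were also at least 2-fold apart, against 26.5%. For 13 of the 69, the direction by gene TPM was opposite to that by scaled counts. On total counts in place of TMM, 10 were at least 2-fold higher in replicate 1 and 8 in replicate 2, and the share of all 2-fold calls that were higher in replicate 2 moved from 72.8% to 57.6%. Genes below named for a 2-fold gap, for missing the test or for their rank in 1 library, beyond the highest, the lowest and the most different of each list, were chosen after their values were seen.

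The substrate and its exchange factor were all present, with all 8 subunits of eIF2 and eIF2B at 1 TPM or more in both libraries. Eif2s1, which encodes the eIF2 alpha subunit that the kinases phosphorylate, had 10.1 TPM in replicate 1 and 43.7 TPM in replicate 2 and was 5.51-fold higher in replicate 2 by scaled counts. Eif2s3x was 2.10-fold higher in the same library. By mean TPM the most abundant were the exchange factor subunits Eif2b2 at 533 and 378 TPM, Eif2b4 at 319 and 231 TPM and Eif2b5 at 35.3 and 26.7 TPM, and the lowest was Eif2b3 at 5.08 and 7.27 TPM. By scaled counts Eif2b2 went the other way and was 1.66-fold higher in replicate 2. In replicate 2 Eif2s1 stood above Eif2b5, and Eif2b1 was lowest at 6.13 TPM. Eif2b4 and Eif2b5 were the 2 that did not differ beyond counting noise. The median log2 ratio of the list was 0.54, against 0.06 for all genes.

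Of the 10 regulators of the kinases, 8 were at 1 TPM in both libraries. The chaperone gene Hspa8 stood at 442 and 822 TPM and was 2.93-fold higher in replicate 2, the only one at least 2-fold apart. Cdc37, the co-chaperone of many kinases, stood at 466 and 284 TPM, and Gcn1l1, which activates GCN2 on the ribosome, at 83.5 and 103 TPM. Impact, an inhibitor of GCN2, was lowest at 0.81 and 0.31 TPM. Dele1 and Oma1, which relay mitochondrial stress to HRI and were chosen after their values were seen, stood at 56.0 and 85.2 TPM and at 1.22 and 0.49 TPM. Of the 5 partners of Ppp1r15a and Ppp1r15b, Actb, whose actin protein binds the phosphatase complex, had the highest mean TPM, at 338 in replicate 1 and 1048 in replicate 2, and was 6.04-fold higher in replicate 2 by scaled counts. Ppp1ca stood at 542 and 624 TPM, which was the highest in replicate 1, Ppp1cc at 337 and 201 TPM and Ppp1cb was lowest at 6.15 and 11.2 TPM.

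The partners and targets of Atf4 covered a wide range of levels. Of 6 genes for partner factors, Atf5 led at 385 and 299 TPM, with Cebpb at 49.2 and 25.5 TPM and Cebpg at 16.3 and 23.7 TPM. Cebpg was 1.65-fold higher in replicate 1 by scaled counts, opposite to its gene TPM. Atf5 did not differ beyond counting noise, and Nfe2l2 was 2.19-fold higher in replicate 2. Atf3, a target and partner of the pathway, had no count in either library, which allows up to 3 counts in each. Of 24 known Atf4 target genes, 13 were at 1 TPM in both libraries and 7 were under 0.1 TPM in both. By mean TPM Eif4ebp1, a brake on cap-dependent translation, led at 575 and 541 TPM, followed by Shmt2 of serine metabolism at 317 and 390 TPM and the amino acid transporter gene Slc7a5 at 118 and 132 TPM. Slc3a2, the partner of Slc7a5, stood just above it in replicate 1 at 120 TPM. Eif4ebp1 was 1.18-fold higher in replicate 2 by scaled counts, opposite to its gene TPM. Vldlr was lowest, with no count in replicate 1 and 1 count in replicate 2.

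Among the 15 Atf4 targets tested, 4 were higher in replicate 1 and 9 in replicate 2 beyond counting noise, and Pck2 and Trib3 were not. Ddit4, an inhibitor of mTORC1, was 2.23-fold higher in replicate 1 by scaled counts. Its level was low, at 3.85 and 1.34 TPM from 148 and 108 counts. The others at least 2-fold apart had fewer counts still: Phgdh had 29 and 2 counts, and Nupr1 had 5 and 41. The median log2 ratio of the tested targets was 0.24. The summed TPM of the list was 1391 in replicate 1 and 1360 in replicate 2.

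The arms of the unfolded protein response that run beside PERK had higher summed TPM in replicate 1, while by scaled counts their genes differed in both directions. The 13 genes of the IRE1 and XBP1 arm had sums of 1163 and 606 TPM, and 7 were higher in replicate 1 and 4 in replicate 2 beyond counting noise, with a median log2 ratio of scaled counts of -0.34. Sec61b, a subunit of the translocon, had the highest mean TPM, at 423 and 137, and was 2.49-fold higher in replicate 1, as was Dnajb9 at 2.40-fold. Serp1, highest in replicate 2, stood at 335 and 207 TPM and Dnajb11 at 182 and 55.2 TPM. Rtcb, the ligase that rejoins Xbp1 after IRE1 cuts it, stood at 15.1 and 83.5 TPM and was 7.0-fold higher in replicate 2, with Traf2 at 3.65-fold. Sec61a1 was 2.30-fold higher in replicate 2 by scaled counts but higher in replicate 1 by gene TPM, at 78.0 and 62.4. Ern2, the IRE1 gene of gut and airway epithelium, had no count in either library. Ern1, the other IRE1 gene and chosen after its values were seen, stood at 55.3 and 11.7 TPM. By scaled counts it was 1.19-fold higher in replicate 1.

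All 16 genes of the ATF6 arm and the chaperones of the endoplasmic reticulum were at 1 TPM in both libraries, with sums of 3398 and 1857 TPM and a median log2 ratio of scaled counts of -0.18. Pdia3 alone gave 811 of the 1541 TPM between the sums. By mean TPM Pdia3 led at 1282 and 471, followed by P4hb at 801 and 521, which was the higher of the pair in replicate 2, and Calr at 382 and 218, and Atf6 itself was lowest at 1.74 and 1.93 TPM. Beyond counting noise 9 were higher in replicate 1, with Mbtps2 alone at least 2-fold, at 2.67-fold. A further 7 were higher in replicate 2, with Pdia6 at 5.02-fold and Herpud1 at 2.23-fold. Hspa5, the chaperone described above, was higher in replicate 1 by both measures, at 1.11-fold by gene TPM and 1.20-fold by scaled counts.

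**Figure D5:**
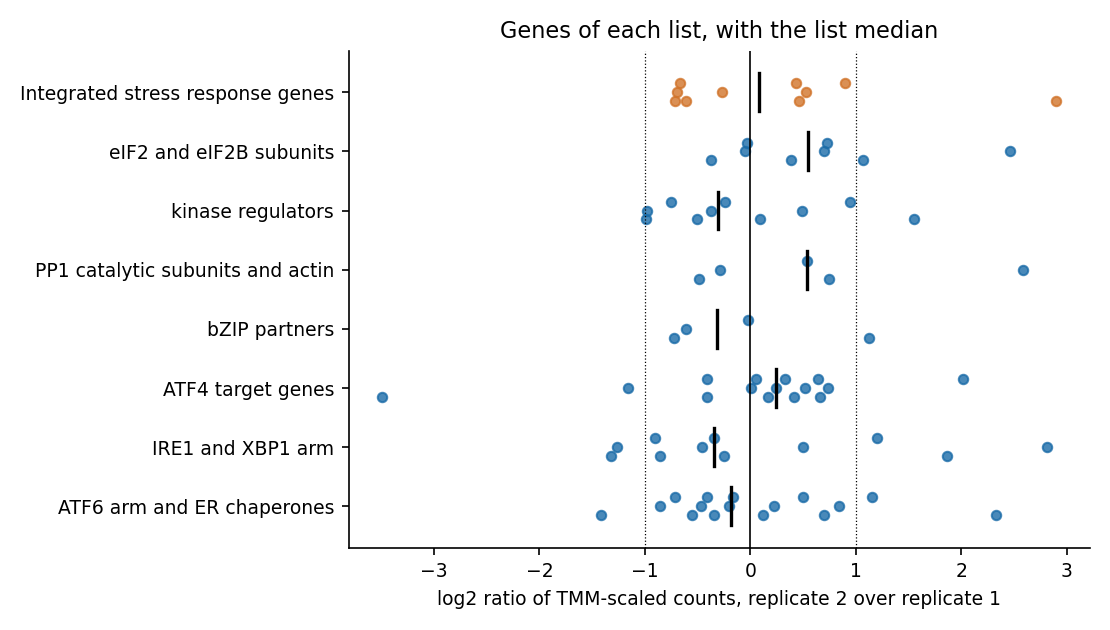
The log2 ratio of TMM-scaled counts, replicate 2 over replicate 1, for each tested gene of the 10 stress response genes and the 7 pathway lists, with a bar at each list's median and dotted lines at 2-fold. Eif2s1, Actb, Rtcb, Pdia6 and Ddit3 lie furthest to the right, and the medians run from -0.34 to 0.54.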

How the data were processed

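Polyadenylated RNA of 1 group of 2 libraries was analysed from a gene and a transcript table each. Reads were aligned to mm10 and quantified on GENCODE M4, per the file headers and notes; aligner and quantifier: not given in the sources used here. The deposited expected counts are estimated fragments, not normalised. The deposited TPM and FPKM values are scaled to effective length, and the deposited percent values give each transcript's part of its gene's TPM. Symbols, transcript classes and sequences came from GENCODE M21 and RefSeq on GRCm38, and symbols matched 42462 of 43346 gene identifiers. M4 was not used here. Entries with no mouse gene identifier held 1 count in replicate 1 and 0 in replicate 2 and were left out.

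Counts were rounded. Since 1 library against 1 leaves no residual degrees of freedom for edgeR's quasi-likelihood fit, genes with a summed count of at least 20 were compared by the exact conditional binomial test (two-sided) with TMM sizes (edgeR 4.0.16, scipy 1.17.1), Benjamini-Hochberg at 0.05, with a prior count of 2 in ratios. P-values and intervals cover counting error only. Tested on simulated data over 10661 genes of this comparison, it found 88.0% of genes changed 1.5-fold, all genes changed 4-fold, and 3.09% false calls. These rates hold for the simulated data only. They give no error rate for the real libraries, between which 80.7% of the genes tested were called. Named were the 10 genes, their transcripts with at least 10% of TPM, and of each list the 3 highest, the lowest and the most different gene with at least 100 counts. The genes and lists were chosen with earlier results of these data known. Alternatives were posterior means, FPKM, total counts, DESeq2 1.42.0 size factors, other filters and each library alone.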

Additional observations from a re-analysis of the deposited data

How the results depend on the processing

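Each of the 10 genes stayed at 1 TPM in both libraries by posterior mean TPM, by FPKM and by principal transcripts. All 10 differed beyond counting noise, in the same direction, with total counts and with DESeq2 size factors, which moved the median log2 ratio of all genes by -0.17 and -0.01. On the scale of log2(TPM + 1), 5 genes and not 1 were at least 2-fold apart, against 24.3% of all genes tested. The mean share of Eif2ak1 among the kinases was 54.9% and ran from 46.2% to 63.6% with either replicate left out, and it was 31.7% over principal coding transcripts, an alternative chosen after seeing the data. The mean log2 ratio of Eif2ak1 to Eif2ak4 was 1.82, ran from 1.19 to 2.44 with either replicate left out, was 0.47 by expected counts, which are not scaled to length, and reversed to -0.55 over principal transcripts. By TPM of these transcripts the library ratios of Eif2ak4 and Ppp1r15b also reversed, from 0.11 and -1.23 by gene TPM to -0.18 and 0.14 on the log2 scale. The cause was not tested. By scaled counts of the whole gene these ratios were 0.46 and -0.61, but TPM and scaled counts are unlike scales. Atf4, with a single transcript, was at 0.09 by TPM and 0.43 by scaled counts. Of the 10 genes, 4 were led by a principal coding transcript in both libraries by TPM. The comparison of libraries has no value with a library left out. With 2 libraries of 1 cell sample record, spread between cultures cannot be estimated, and the 186 counts of Ddit3 in replicate 1 are the fewest behind any of the 10 genes.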
